A study of Mus musculus with 4 samples.

Results

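The genes followed here are 10 members of the BCL2 family, the proteins that decide whether a cell's mitochondria stay intact or open and commit the cell to apoptosis. They were a list of symbols: the pro-survival genes Bcl2, Bcl2l1 (BCL-XL), Bcl2a1a (A1) and Mcl1, the pore-forming gene Bak1, and the BH3-only genes Bcl2l11 (BIM), Bid, Bad, Bik and Bmf. Each of the 10 had 1 feature on the array, out of 22206 gene features that stood for 19505 named genes. The genes were measured in 2 spermidine cultures, in which mouse CD8+ T cells received 25 µM spermidine, a polyamine, in the medium, and in 2 control cultures left untreated. In both groups the cells were taken from lymph nodes and spleens of mice of the C57/BL6 strain and were stimulated for 3 days with Dynabeads carrying antibodies to CD3 and CD28, in medium with IL-2, so the controls were activated T cells and no resting cells were among the arrays. Total RNA (250 ng) was labelled for Clariom S Mouse arrays, and all values below are log2 signals or differences of them. The labels call the 2 arrays of a group biological replicates without naming animals, pools or cultures. The p-values therefore rest on the spread between these arrays, and the fit joins a gene's own spread with that of all gene features. The question was how transcript levels of survival and death genes in activated CD8+ T cells differ when spermidine is present.

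Pro-survival proteins hold the pore formers BAK and BAX in check at the outer mitochondrial membrane. BH3-only proteins carry stress, cytokine withdrawal or death receptor signals to them, either by occupying the pro-survival proteins or by activating the pore formers directly, and the pore then releases cytochrome c, which starts the caspase cascade. In T cells, BCL2 and MCL1 sustain resting and dividing cells, A1 and BCL-XL are induced by antigen receptor and co-stimulatory signals, and BIM is the main killer of activated cells when a response ends.

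The arrays were alike as a whole. Across gene features, pairwise correlations of the arrays lay between 0.989 and 0.994, and array medians between 5.13 and 5.25. The median gap between arrays of a group was 0.27 between the spermidine arrays and 0.25 between the control arrays. Background features, with probes that match nothing in the genome, reached 6.35 at their 95th percentile (mean of the arrays), and a signal below this mark may hold little that is specific. Markers of the labelled cell type were present, and all 9 measured CD8 T cell markers lay above the mark, among them Cd8a, the CD8 alpha chain, at 16.59 and 16.57 in the spermidine arrays and 16.66 and 16.68 in the control arrays. Of the 9 CD8 markers 7 had a lower mean with spermidine (5 after a further quantile normalization), with a median difference of -0.17, and 5 of 9 separated downward by group, against 18.4% of all gene features. The hybridisation controls, which are added transcripts, stood at 10.74 and 11.02 in the spermidine arrays and 10.47 and 10.39 in the control arrays, a mean difference of 0.45. The 4 poly-A control features differed by 0.43. Their means were below the background mark, at 5.23 and 5.28 in the spermidine arrays and 4.88 and 4.77 in the control arrays. The part of this shift in the differences given below was not tested.

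Bcl2l11 and Bcl2a1a, a killer and a protector, had the largest differences of the 10 members, and both were higher with spermidine. Bcl2l11 had log2 signals of 12.53 and 12.68 in the spermidine arrays, against 11.56 and 11.97 in the control arrays. The spermidine arrays both lay above the control arrays, and the gap between the groups was wider than the gap within either of them. The means were 12.60 ± 0.11 with spermidine and 11.77 ± 0.29 without (SD, n = 2 each), a difference of 0.84 ± 0.24 (SE) or 1.79-fold, with a 95% interval from 1.21-fold to 2.64-fold. Over all gene features this did not pass the test (limma, adjusted p = 0.637; unadjusted p = 0.0090). In these bulk cultures more cells with the transcript and more transcript per cell cannot be told apart.

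Bcl2a1a, an A1 gene that protects activated lymphocytes, had log2 signals of 8.37 and 8.63 in the spermidine arrays and 7.80 and 7.57 in the control arrays. Its arrays again separated by group, with a difference 3.11 times as large as the wider gap within a group, where for Bcl2l11 the ratio was 2.03. The means were 8.50 ± 0.19 with spermidine and 7.69 ± 0.17 without (SD, n = 2 each), a difference of 0.82 ± 0.24 (SE) or 1.76-fold, with a 95% interval from 1.21-fold to 2.56-fold. This gene did not pass the test either (limma, adjusted p = 0.637; unadjusted p = 0.0085). Of all gene features, 2.18% had a difference at least as large as that of Bcl2l11, in either direction, and 2.39% one at least as large as that of Bcl2a1a. In 24.5% of all gene features the difference exceeded the wider gap within a group.

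No member was called. At an adjusted p of 0.05 limma called 0 of the 10 members, where it called 0% of all gene features. At an unadjusted p under 0.05 there were 2 of 10 members, both higher, against 3.38% of features that were higher, 3.64% that were lower and 7.02% in either direction. The count of 2 became 1 without control replicate 1, where Bcl2l11 had an unadjusted p of 0.075 (limma), and 1 without control replicate 2, where Bcl2a1a had an unadjusted p of 0.062 (limma). The groups separated without overlap in 2 of 10 members, Bcl2l11 and Bcl2a1a, both upward with spermidine, a share close to the 18.3% of all gene features that did so. The count was 3 of 10 after other normalizations, with Mcl1 added by a further quantile normalization or cyclic loess and Bcl2 by median centring. None of the 10 separated downward (0 of 10), where 18.4% of features did, and 36.7% of features separated either way. With 2 arrays a group the smallest p of an exact permutation test is 0.333, and no such test was run.

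**Figure D1:**
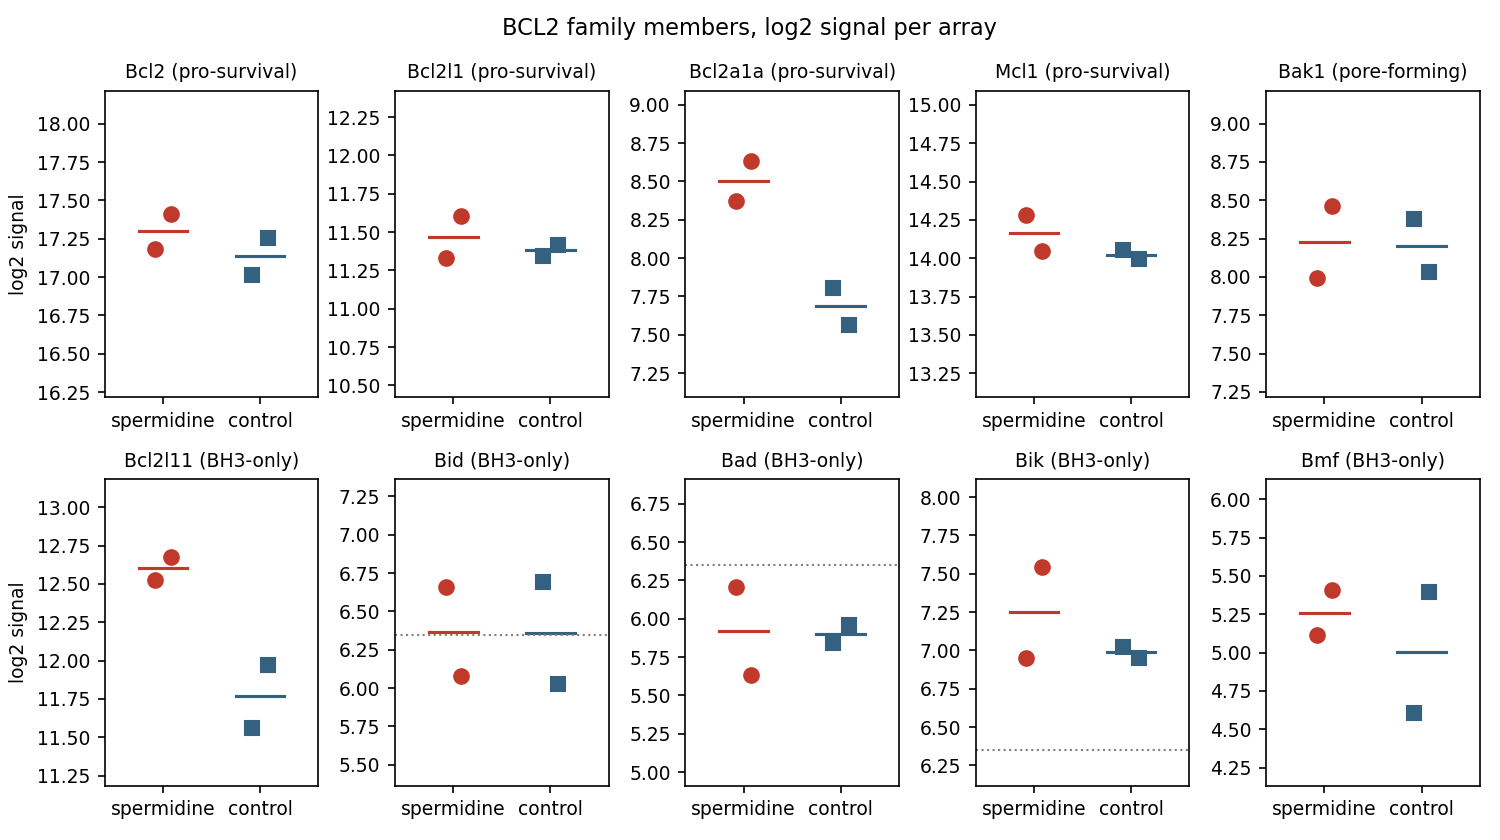
Log2 signal of the 10 members on each array, with spermidine arrays as circles, control arrays as squares and short lines at the group means. Every panel spans 2 log2 units on its own axis, and the dotted line, where it falls in the panel, is the background mark of 6.35. The groups separate in the panels of Bcl2a1a and Bcl2l11 and overlap in the other 8.

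Bcl2a1a belongs to a cluster of near-identical mouse genes on chromosome 9, and this bears on what its feature measures. The windows around the gene starts, from 250 bases before to 50 after, are shown to make the likeness visible (RefSeq, GRCm38.p6, 5′ to 3′ on the gene's strand). Most of each window lies before the start, outside the transcript. The windows therefore do not show how alike the sequences under the probes are. In the Bcl2a1a window, chr9:88956670-88956969 on the plus strand, capitals mark the only match to TGANTCA, a loose form of the AP-1 motif. It allows any base at N and was searched on both strands. The match reads TGAATCA and begins 120 bases before the start. In the Bcl2a1b window, chr9:89199023-89199322 on the plus strand, and the Bcl2a1d window, chr9:88731801-88732100 on the minus strand, capitals mark bases that differ from Bcl2a1a where the windows align.
Bcl2a1a: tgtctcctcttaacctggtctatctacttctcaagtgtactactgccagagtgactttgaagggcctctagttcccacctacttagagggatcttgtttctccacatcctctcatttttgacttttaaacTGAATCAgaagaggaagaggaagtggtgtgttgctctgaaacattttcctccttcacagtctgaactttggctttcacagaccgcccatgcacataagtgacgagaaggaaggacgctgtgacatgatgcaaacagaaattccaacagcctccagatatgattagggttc
Bcl2a1b: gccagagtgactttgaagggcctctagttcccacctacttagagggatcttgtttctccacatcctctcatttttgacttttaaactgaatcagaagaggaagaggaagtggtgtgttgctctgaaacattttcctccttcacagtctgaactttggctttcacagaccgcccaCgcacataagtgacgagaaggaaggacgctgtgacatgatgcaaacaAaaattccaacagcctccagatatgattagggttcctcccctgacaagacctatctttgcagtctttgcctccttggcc
Bcl2a1d: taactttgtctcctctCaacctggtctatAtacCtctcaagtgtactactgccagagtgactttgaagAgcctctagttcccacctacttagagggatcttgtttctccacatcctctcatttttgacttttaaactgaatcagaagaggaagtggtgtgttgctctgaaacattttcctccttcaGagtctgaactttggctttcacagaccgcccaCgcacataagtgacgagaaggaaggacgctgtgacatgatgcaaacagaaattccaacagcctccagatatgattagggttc

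Bcl2a1b matched Bcl2a1a at 254 of 256 aligned positions (99.2%), and Bcl2a1d at 288 of 300 (96%), where 6 bases differed and 6 positions were gaps. The loose AP-1 motif stood in all 3 windows, which are near-identical copies of each other, and in 7.81% of all 32851 RefSeq windows. Of the 15 windows found for members it was in 1, that of Bcl2a1a. The window of Bcl2a1c, a further copy, held no match. The array reports the copies as separate features, but how far their probes tell them apart is not known from the files, so the value of each copy is uncertain. Bcl2a1b had signals of 9.56 and 9.93 in the spermidine arrays and 9.42 and 8.95 in the control arrays, a difference of 0.56 ± 0.26 (SE; limma, adjusted p = 0.733). Its spermidine arrays also lay above its control arrays, by a narrow margin. Bcl2a1d had 7.74 and 8.17 in the spermidine arrays and 7.71 and 7.81 in the control arrays, and here the groups overlapped. The difference of Bcl2a1d was 0.20, with a 95% interval from -0.37 to 0.76. Bcl2a1c, a copy with a disrupted reading frame, had 5.53 and 6.89 in the spermidine arrays against 5.82 and 6.06 in the control arrays, around the background mark. Leaving out control replicate 2 brought the difference of Bcl2a1b to 0.33. Without spermidine replicate 2 it was 0.37, and that of Bcl2a1d was -0.02. Whether the copies differed from each other in their response was not tested.

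Bcl2l11 is known to be transcribed under the control of FOXO factors in lymphocytes deprived of cytokine. Its windows at the 2 gene starts in the RefSeq table are shown because they allow a look for that motif (GRCm38.p6, chr2:128125788-128126087 and chr2:128127325-128127624, both on the plus strand). Capitals mark the FOXO motif GTAAACA, searched on both strands.
Bcl2l11, upstream start: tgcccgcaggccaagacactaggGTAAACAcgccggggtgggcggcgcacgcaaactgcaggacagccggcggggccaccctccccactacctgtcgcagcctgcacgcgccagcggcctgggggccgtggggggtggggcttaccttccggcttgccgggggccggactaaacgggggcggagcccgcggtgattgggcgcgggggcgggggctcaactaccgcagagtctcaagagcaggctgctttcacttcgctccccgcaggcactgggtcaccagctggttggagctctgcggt
Bcl2l11, downstream start: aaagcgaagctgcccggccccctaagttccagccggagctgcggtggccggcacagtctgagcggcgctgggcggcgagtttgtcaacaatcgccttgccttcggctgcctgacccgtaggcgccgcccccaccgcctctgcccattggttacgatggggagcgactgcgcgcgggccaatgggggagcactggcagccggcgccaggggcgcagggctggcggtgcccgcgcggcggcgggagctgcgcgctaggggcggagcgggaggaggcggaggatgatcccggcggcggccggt

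The upstream window held the motif once, beginning 227 bases before the start, and the downstream window did not hold these letters. Of all the RefSeq windows, 3.65% held the motif, and of the 15 windows of 9 members it was in this 1. The transcript of Foxo3, one of these factors, had signals of 9.69 on both spermidine arrays and 8.80 and 9.14 on the control arrays, a difference of 0.72 ± 0.23 (SE; limma, adjusted p = 0.637). The groups did not overlap. Foxo1, the related factor of naive T cells, overlapped between groups, with 11.91 and 11.35 in the spermidine arrays and 11.72 and 11.55 in the control arrays. FOXO proteins are controlled largely through their phosphorylation and location, which arrays do not measure, and no link between these values was tested.

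The other pro-survival members differed little. Bcl2, the founding member, had signals of 17.18 and 17.41 in the spermidine arrays and 17.01 and 17.26 in the control arrays. The groups overlapped, and the difference of 0.16 was smaller than the gap within either group. Signals this high lie near the top of the scale, where 188 features exceeded 16 on every array. Mcl1, a short-lived protein needed at every stage of T cell life, had 14.28 and 14.05 in the spermidine arrays and 14.05 and 13.99 in the control arrays. Its difference was 0.14, with 1 spermidine array at the level of a control array. Bcl2l1 had 11.33 and 11.60 in the spermidine arrays and 11.34 and 11.42 in the control arrays, and the lower spermidine array was below both controls. The 95% intervals ran from 0.77-fold to 1.63-fold for Bcl2, from 0.77-fold to 1.59-fold for Mcl1 and from 0.74-fold to 1.53-fold for Bcl2l1, so differences of up to 1.5-fold upward lay inside all 3. The median difference of the 4 pro-survival members was 0.15, where that of all gene features was -0.0067.

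Bak1 encodes a pore former that sits in the mitochondrial membrane. Its signals were 7.99 and 8.46 in the spermidine arrays and 8.38 and 8.03 in the control arrays, and the values interleaved. The difference was 0.02, with a 95% interval from -0.58 to 0.63. Bax, the other main pore former, was not analysed here, and Bok, a distant relative, stayed below the background mark at 4.37 and 4.39 in the spermidine arrays against 4.45 and 4.36 in the control arrays.

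The other BH3-only members were dim, and none separated by group. Bik had 6.95 and 7.54 in the spermidine arrays and 7.02 and 6.95 in the control arrays, so that its difference of 0.26 came from 1 spermidine array. Bid, which caspase 8 cleaves to join death receptors to mitochondria, had 6.66 and 6.08 in the spermidine arrays and 6.69 and 6.03 in the control arrays, with 1 array of each group above the background mark. In both groups the array numbered 1 was the higher, and the group means were nearly equal, at 6.37 with spermidine and 6.36 without.

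Bad, a partner of BCL2 and BCL-XL that growth factor kinases hold inactive, had 6.21 and 5.64 in the spermidine arrays and 5.84 and 5.96 in the control arrays. Bmf, which responds to loss of attachment and to stress, had 5.11 and 5.41 in the spermidine arrays and 4.61 and 5.40 in the control arrays. Bad and Bmf were below the background mark on all 4 arrays, where signals do not give a fold. Their differences were 0.02 and 0.26. The median over the 6 pro-death members, Bak1 among them, was 0.14, beside 0.15 for the pro-survival members, and neither median was steady. The pro-death median was 0.024 where a filter at the median level left out Bmf. Leaving out spermidine replicate 1 gave medians of 0.33 for the pro-death and 0.25 for the pro-survival members, and leaving out control replicate 1 gave 0.25 and 0.11 in that order.

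All 10 members had a mean difference above 0 (8 after a further quantile normalization and 9 after median centring), where 49.1% of all gene features did, but most of these differences lay within the spread between arrays. In 8 of 10 the difference was smaller than the wider of the gaps within a group and the 95% interval took in 0. The difference exceeded that gap in 2 of 10 members, a share near the 24.5% of all gene features in which it did. The sign turned in 6 members when 1 array was left out. Without control replicate 2, Bid was at -0.33 and Bak1 at -0.15. Without spermidine replicate 1, Bid was at -0.28 and Bad at -0.27, and Bad was at -0.04 without control replicate 1. Leaving out spermidine replicate 2 put Bak1 at -0.21. Bmf became -0.14 without control replicate 1, and without spermidine replicate 2 Bcl2l1 became -0.05 and Bik -0.03. Bcl2l11 stayed between 0.63 and 1.04 and Bcl2a1a between 0.68 and 0.95. Bcl2 ranged from 0.04 to 0.28 and Mcl1 from 0.03 to 0.26.

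**Figure D2:**
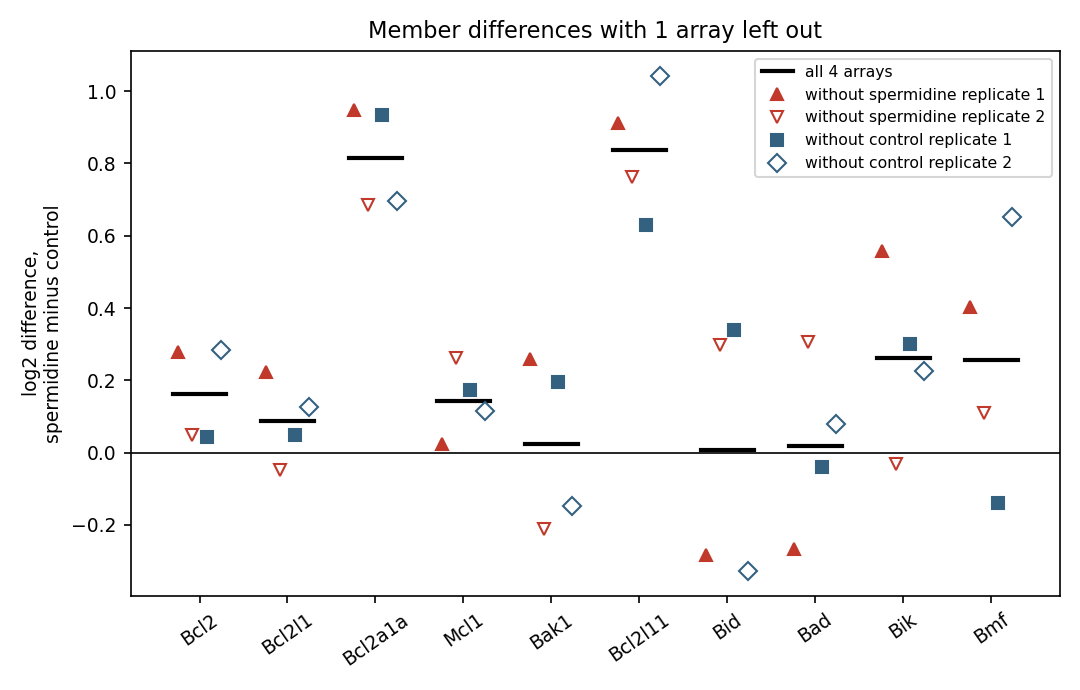
Log2 difference of each member, spermidine minus control, with all 4 arrays (black lines) and with 1 array left out (filled and open symbols). Bcl2l11 and Bcl2a1a stay above 0.6 in every case, and Bcl2l1, Bak1, Bid, Bad, Bik and Bmf lie on both sides of 0.

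Of the further family genes, 17 of 18 were measured and 0 passed the test in either direction (limma, adjusted p from 0.706 to 0.997). The median difference of the 17 was 0.10, with 10 higher and 7 lower. At an unadjusted p under 0.05 there was 1, lower, against 3.64% of all gene features that were lower. This gene was Bnip3, a mitochondrial protein of hypoxia and mitophagy, with 10.89 and 10.08 in the spermidine arrays and 11.63 and 10.95 in the control arrays. Its groups separated by a margin far smaller than the gap within each, and the difference of -0.81 ± 0.34 (SE) became -0.40 without spermidine replicate 2 and -0.47 without control replicate 1. Its relative Bnip3l overlapped between groups, at 13.74 and 13.53 with spermidine and 13.67 and 13.78 without.

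The p53-induced BH3-only genes did not separate. Pmaip1 (NOXA) had 11.68 and 11.75 in the spermidine arrays and 11.26 and 11.75 in the control arrays. Bbc3 (PUMA) had 5.88 and 5.76 in the spermidine arrays and 5.54 and 5.89 in the control arrays, all below the background mark. The pro-survival gene Bcl2l2 (BCL-W) had 8.26 and 7.64 in the spermidine arrays and 7.53 and 7.58 in the control arrays, and its difference of 0.39 was 0.08 without spermidine replicate 1. Bcl2l13, a mitochondrial membrane protein, had 9.07 and 8.87 in the spermidine arrays and 8.70 and 8.73 in the control arrays, a difference of 0.26 that was 0.15 without spermidine replicate 1. Hrk and Bcl2l14 lay below the background mark on every array, with differences of -0.18 and -0.42. That of Bcl2l14 was -0.19 without control replicate 1, -0.24 without spermidine replicate 1 and -0.65 without control replicate 2.

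**Figure D3:**
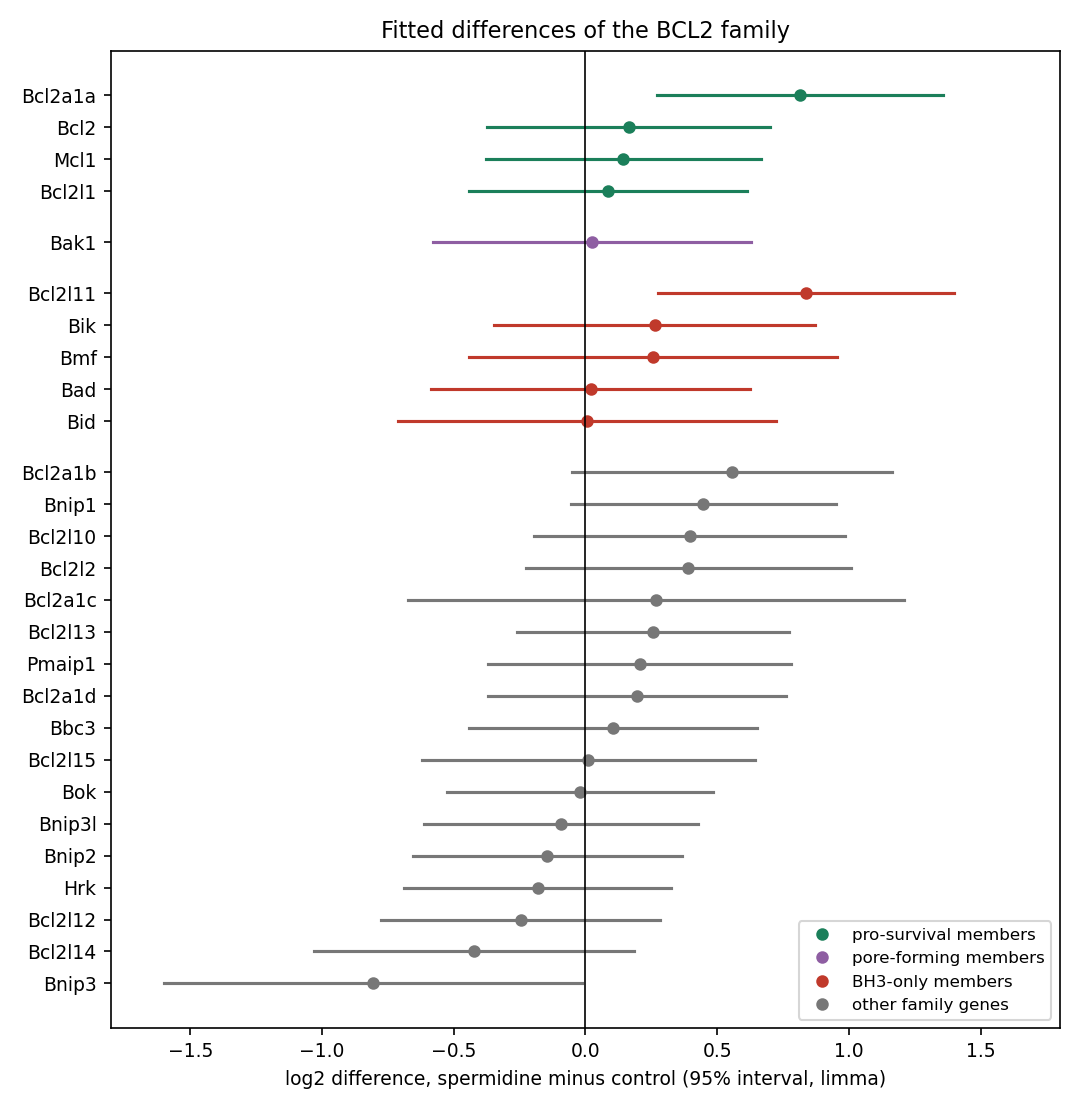
Fitted log2 differences, spermidine minus control, of the 10 members and the 17 further family genes (points) with 95% intervals from limma (lines). The intervals of Bcl2l11 and Bcl2a1a lie above 0, that of Bnip3 runs from -1.60 to -0.013, and the others cross 0.

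Downstream of the pore, 17 of 19 caspase and pore genes were measured, 7 of them higher and 10 lower, with a median of -0.16. Of the 17, 0 passed the test (limma, adjusted p from 0.710 to 0.994). At an unadjusted p under 0.05 there was 1, higher, against 3.38% of all gene features that were higher. This was Casp9 (limma, unadjusted p = 0.049), which lay below the background mark on every array. Apaf1, the scaffold that cytochrome c assembles into the apoptosome, had 11.85 and 11.59 in the spermidine arrays and 11.02 and 11.34 in the control arrays, a difference of 0.54 ± 0.24 (SE). Both spermidine arrays lay above the controls. Casp9, the initiator caspase that joins Apaf1, had 5.02 and 5.50 in the spermidine arrays and 4.61 and 4.75 in the control arrays, below the background mark throughout, and its difference of 0.58 was 0.34 without spermidine replicate 2. The cytochrome c gene Cycs differed by -0.38, a value that was near 0 without control replicate 1 and -0.76 without control replicate 2. Diablo, released with cytochrome c to block the caspase inhibitor XIAP, had 10.41 and 10.02 in the spermidine arrays and 10.83 and 10.47 in the control arrays, a difference of -0.44 that was -0.24 without spermidine replicate 2 and -0.26 without control replicate 1. Xiap itself differed by -0.21, and Vdac2, a membrane channel that binds BAK, by -0.02. Vdac2 stood near 16.4 on the arrays, toward the top of the scale, and its sign turned under other normalizations. The mitotic survivin gene Birc5, named after its values were seen, had 12.47 and 11.64 in the spermidine arrays and 12.93 and 12.58 in the control arrays.

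Of 15 death receptor genes 14 were measured, 8 higher and 6 lower, with a median of 0.01 (-0.00076 after median centring, 0.070 after cyclic loess and 0.083 after a further quantile normalization) and 0 passing the test (limma, adjusted p from 0.637 to 0.998; 3 at an unadjusted p under 0.05, all higher, against 3.38% of all features). Fas, the receptor through which activated T cells can be killed, had 10.60 and 10.84 in the spermidine arrays and 9.93 and 10.15 in the control arrays, a difference of 0.68 ± 0.23 (SE). Its groups did not overlap. The others of the 3, named after their values were seen, were Dapk1, a death-associated protein kinase, and Tnfrsf10b, the TRAIL receptor. Dapk1 had 8.74 and 8.92 in the spermidine arrays and 7.57 and 7.71 in the control arrays, and its difference of 1.19 ± 0.22 (SE), or 2.28-fold, was 6.80 times the larger gap within a group (limma, adjusted p = 0.637). Tnfrsf10b had 10.53 and 10.54 in the spermidine arrays and 10.09 and 9.70 in the control arrays. Casp8 and its inhibitor Cflar, which decide whether a receptor signal reaches Bid, differed by 0.02 and 0.01.

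Of 22 regulators of the members 19 were measured, 14 higher and 5 lower, with a median of 0.08 and 0 passing the test (limma, adjusted p from 0.637 to 1.0). At an unadjusted p under 0.05 there were 2, both higher, against 3.38% of all gene features that were higher. They were Foxo3, given above, and Huwe1, named after its values were seen. Huwe1, the ligase that marks MCL1 for degradation, had 13.87 and 14.01 in the spermidine arrays and 13.48 and 13.26 in the control arrays. The cytokine receptors that sustain BCL2 differed by 0.15 for Il2ra and 0.05 for Il7r, and their signal transducer Stat5a by -0.02. Il2rb, another chain of the IL-2 receptor, had 16.94 and 16.92 in the spermidine arrays and 17.14 and 17.12 in the control arrays, and Stat5b, a second transducer, had 10.01 and 10.06 in the spermidine arrays and 9.42 and 9.82 in the control arrays. Both genes, named after their values were seen, separated by group, Il2rb downward and Stat5b upward, and neither passed the test (limma, adjusted p = 0.886 and 0.771). Of the 19 genes 5 separated upward and 1 downward, against 18.3% and 18.4% of all gene features. Ddit3, a stress factor that can induce Bcl2l11, had 11.42 and 11.17 in the spermidine arrays and 10.80 and 11.40 in the control arrays, and the groups overlapped. A dimmer Ddit3 feature had 8.54 and 9.07 in the spermidine arrays and 7.97 and 8.18 in the control arrays, without overlap. Both features of this gene had a higher mean with spermidine, but only the dimmer separated by group.

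**Figure D4:**
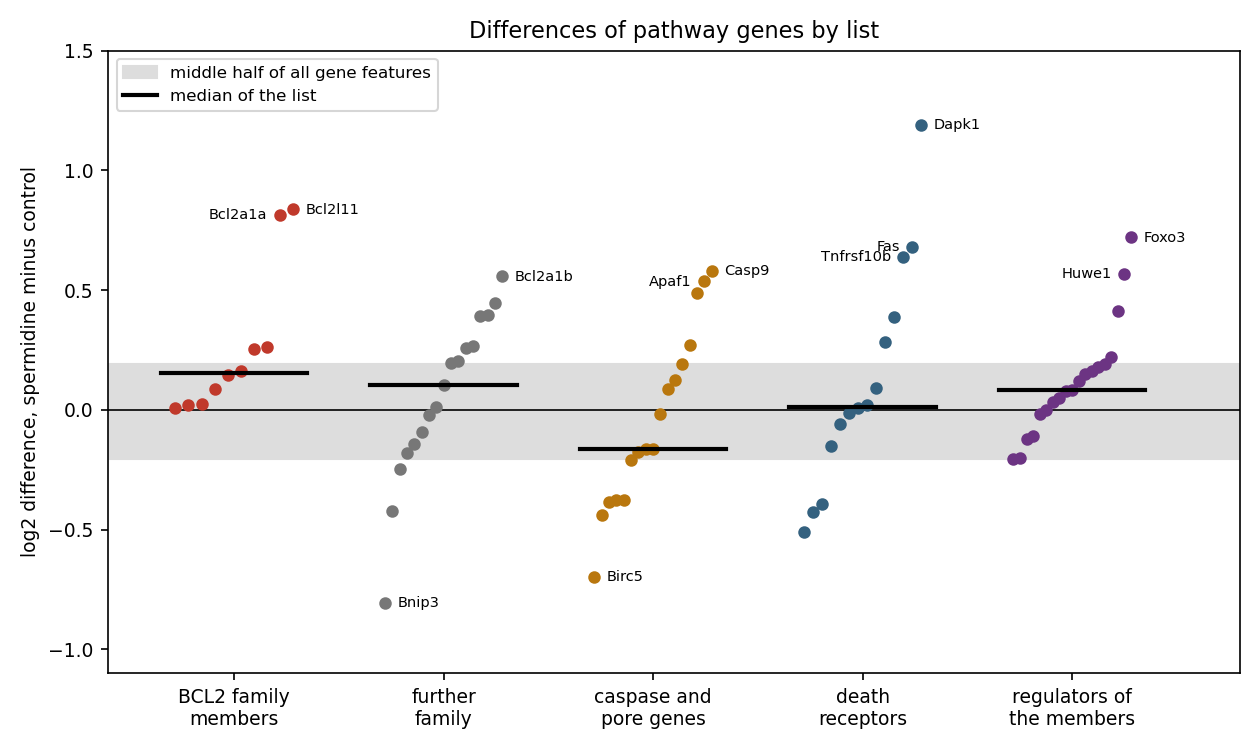
Log2 differences, spermidine minus control, of the measured genes of 5 lists (points, sorted within each list), with the median of each list as a black line and the interquartile range of all gene features, from -0.21 to 0.19, as a grey band. The list medians lie inside the band, and Bcl2l11, Bcl2a1a, Dapk1, Foxo3 and Fas are among the labelled points above it.

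A1 genes and Bcl2l11 are also used by B cells and myeloid cells, so markers of these cells are given beside them. All 7 measured B cell markers had a higher mean with spermidine, where 49.1% of all gene features did, and in 5 of 7 the spermidine arrays lay above the control arrays, where 18.3% of features did. The mean log2 signal of these 7 was 6.30 and 6.02 in the spermidine arrays and 5.72 and 5.66 in the control arrays, and 3 of 7 had a mean above the background mark. Cd79a, a chain of the B cell receptor complex, had 7.41 and 7.15 in the spermidine arrays and 6.44 and 6.50 in the control arrays. The defining B cell factor Pax5 stayed between 3.98 and 4.28 on all arrays, below the background mark. All 6 measured macrophage and monocyte markers and all 5 dendritic cell markers were below that mark on every array. The macrophage list averaged 3.69 and 3.73 in the spermidine arrays and 3.74 and 3.73 in the control arrays. Of 2 measured CD4 T cell markers 1 separated upward, against 18.3% of all gene features. This was Zbtb7b, with 7.32 and 7.41 in the spermidine arrays and 6.32 and 6.88 in the control arrays (limma, adjusted p = 0.639). Cd4 itself overlapped between groups, with a difference of -0.06. The part of B cell or CD4 T cell transcripts in the differences of Bcl2a1a and Bcl2l11 was not tested.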

How the data were processed

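Values were the authors' deposited log2 signals per feature from 4 Clariom S Mouse arrays, and per the submitters' processing notes the tools were RMA and Affymetrix Expression Console, with versions not given in the sources used here. RMA subtracts a modelled background, equalises the arrays by quantiles and combines the probes of a feature, which can compress differences between dim signals. The log2 base was inferred from the values (1.72 to 19.93), and their high top is unexplained. Whether the signals were rescaled is not known, and the folds given above rest on the inferred base. Groups and replicate numbers came from sample titles.

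Of 28846 features, 6640 controls were left out and 22206 gene features entered the fit. In the platform annotation 19572 of them had 1 symbol, 0 several and 2634 none, and all 19572 were found unchanged in RefSeq (GRCm38.p6). A gene took its brightest feature. R 4.3.3 and limma 3.58.1 (lmFit, eBayes, 2 residual and 5.96 prior degrees of freedom) gave two-sided tests, Benjamini-Hochberg adjusted across the 22206 features, at a threshold of 0.05. The number of arrays limits the precision, and the median SE of a difference was 0.246. The fit was tested on simulated data with changes larger than the member differences. That test does not show how well differences of the members' size are detected.

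Members and lists were chosen with earlier results of these data known. Members, a set of family and pathway genes fixed by name, and any list gene past the adjusted threshold were named by rule. Birc5, Dapk1, Tnfrsf10b, Huwe1, Il2rb, Stat5b, Bcl2a1c and the individual markers of cell types fell outside that rule and were named after their values were seen. Bax and some other list genes were not analysed here. Besides the CD8, B cell, macrophage and dendritic markers, 2 of 2 CD4 T cell markers and 3 of 4 NK cell markers (Nkg7 and Eomes, which CD8 T cells share, and Klrb1c) had a mean above background, as did 0 of 3 neutrophil markers and 0 of 1 erythroid marker. RefSeq windows were found for 9 of 10 members, and 1 was without. The name-defined NF-kB motif was in 2 of 15 member windows (Bcl2l1 and Bmf) and in 8.46% of all windows. Alternatives were a trended or robust prior, array weights, other normalizations, filters on dim features, other feature choices, the replicate number as a block, a looser threshold and leaving out each array.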

Additional observations from a re-analysis of the deposited data

How the results depend on the processing

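No member passed the adjusted threshold under any of 11 alternatives with all 4 arrays or without 1 array. At an unadjusted p under 0.05, 2 members and 1558 features passed, and without 1 array the member count was 1 to 2. Over all features 1 passed with a trended prior, median centring, cyclic loess, the filter at the median level, or the replicate block. The adjusted p ran from 0.294 to 0.660 for Bcl2l11 and from 0.321 to 0.660 for Bcl2a1a with all arrays, and from 0.391 to 1.0 and 0.370 to 1.0 without 1 array. Same-numbered arrays are not stated to be paired (correlation of their deviations 0.210), and the replicate block, with adjusted p of 0.294 for Bcl2l11 and 0.321 for Bcl2a1a, called no member. After a further quantile normalization the signs of Bid (-0.020), Bad (-0.016), Vdac2 (0.11) and Stat5a (0.016) turned, after median centring those of Bid (-0.0076), Cflar (-0.0063) and Foxo1 (-0.014), and after cyclic loess those of Vdac2 (0.043) and Stat5a (0.024); the cause was not tested. Members with a difference above 0 numbered 8 to 10 over these settings, and 9 of 9 kept by the filter at the median level. Members separated upward numbered 2, and 3 under each of the other normalizations. Counts of separated arrays were not recomputed with 3 arrays, which separate more easily.

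Without 1 array, differences that changed sign ran from -0.27 to 0.31 for Bad, -0.21 to 0.26 for Bak1, -0.33 to 0.34 for Bid, -0.032 to 0.56 for Bik, -0.14 to 0.65 for Bmf, -0.048 to 0.22 for Bcl2l1, -0.023 to 0.42 for Bcl2a1d, -0.072 to 0.28 for Bbc3, -0.036 to 0.45 for Pmaip1, -0.062 to 0.023 for Bok, -0.20 to 0.013 for Bnip3l, -0.11 to 0.080 for Vdac2, -0.021 to 0.059 for Casp8, -0.17 to 0.19 for Cflar, -0.28 to 0.28 for Foxo1, -0.22 to 0.32 for Il7r, -0.25 to 0.21 for Stat5a and -0.10 to 0.49 for Ddit3.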
